A study of Mus musculus with 18 samples.

Results

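The clustered protocadherin locus of mouse chromosome 18 was examined as 1 kb windows (tiles) between 37085001 and 38005000 on build mm9, a segment of 920 kb. A tile was used in a sample when at least 3 of its CpGs held at least 5 reads, both strands added, and it entered a comparison when this held in at least 2 samples of each group. Of 136365 tiles tested in the genome in at least 1 comparison, 107 lay in this locus, and 35 of these qualified in all 18 samples. The rule for these tiles uses position and coverage, not methylation level. The Pcdha, Pcdhb and Pcdhg clusters follow each other in that order, and 3 sections of equal length, with bounds at 37391667 and 37698334, stand in for them. They are called the Pcdha, Pcdhb and Pcdhg sections, held 23, 23 and 61 tested tiles, and are not annotated gene borders. An mm9 annotation was not used here, so no tile is assigned to a promoter, an exon or a single gene.

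Clustered protocadherins are cell-surface adhesion proteins, best known from neurons, in which each cell uses its own small combination of isoforms to tell its own processes from those of other cells. In Pcdha and Pcdhg, each variable exon has a promoter of its own and is spliced to constant exons shared by the cluster, whereas Pcdhb genes have no shared constant exons. Most of these promoters lie in CpG-rich sequence with a binding site for CTCF, a chromatin-looping factor whose binding there is blocked by DNA methylation, and the methyltransferase Dnmt3b is known to methylate them in the early embryo.

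The assay was reduced representation bisulfite sequencing, which keeps short restriction fragments rich in CpGs and reads a methylated cytosine as one that bisulfite did not convert. Embryonic stem cells (ESC) were female (4 samples) or male (2), embryonic fibroblasts (MEF) were female (4) or male (2), and induced pluripotent stem cells (iPSC) were female (2). Cells caught during reprogramming, all female, either carried the surface antigen SSEA1 (SSEA1+, 2 samples) or lacked it (SSEA1−, 2 samples). The series title puts X chromosome reactivation on the way to pluripotency at its centre, so the autosomal protocadherin locus serves here as a test region for the same comparisons of sex, cell type and reprogramming stage. The labels name no cell line, strain, passage, medium or reprogramming method, and leave unsaid whether samples of 1 group are separate cultures or animals. The p-values therefore measure only how far these samples spread, which may be technical. Cell identity could not be checked against marker genes, since the files hold methylation and no RNA.

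Reads over CpGs ranged from 11424460 to 62920167 per library, and 62 to 97 of the locus tiles qualified in each, with a median of 48.5 to 246.5 reads per tile. The share of CpGs with reads on both strands, which no label records, split the libraries into 3 types. It was 9.03 to 11.7% in type A (the ESC, female MEF 1 and male MEF 2), 15.2 to 16.0% in type B (the SSEA1 populations, female MEF 2 and male MEF 1) and 7.25 to 7.46% in type C (the iPSC, female MEF 3 and female MEF 4). Female MEF 3 and 4 differed little more than reads drawn from the same DNA would, with a mean chi-square per tile of 1.34 where sampling noise alone gives 1. Other pairs among female MEF had 2.5 to 7.45. They were kept as separate samples, and counts with both summed are given below where they differ.

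Most tiles of the locus stood at intermediate levels in fibroblasts. In CpG number they were like the genome at the low end, with 84 of 107 (78.5%) at 3 to 9 CpGs, against 78.0% of all tested tiles. The other 23 (21.5%, against 16.6%) held 10 to 29, with at most 26, and 5.46% of all tested tiles held 30 or more. The longest stretch without a tested tile ran for 80 kb from 37316001 to 37396000, across the border between the Pcdha and Pcdhb sections. In female MEF, 69 of 105 tiles (65.7%) had a group mean between 20 and 80%, against 30.3% of other autosomal tiles. Only 24 (22.9%) were over 80%, against 47.8% elsewhere. The median tile stood at 57.7% in the locus and at 78.8% elsewhere. Tiles at 20 to 80% were mostly made of CpGs that were themselves intermediate: in the 4 female MEF libraries, 69.4 to 75.2% of the CpGs with at least 10 reads in such tiles lay between 20 and 80%.

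**Figure D1:**
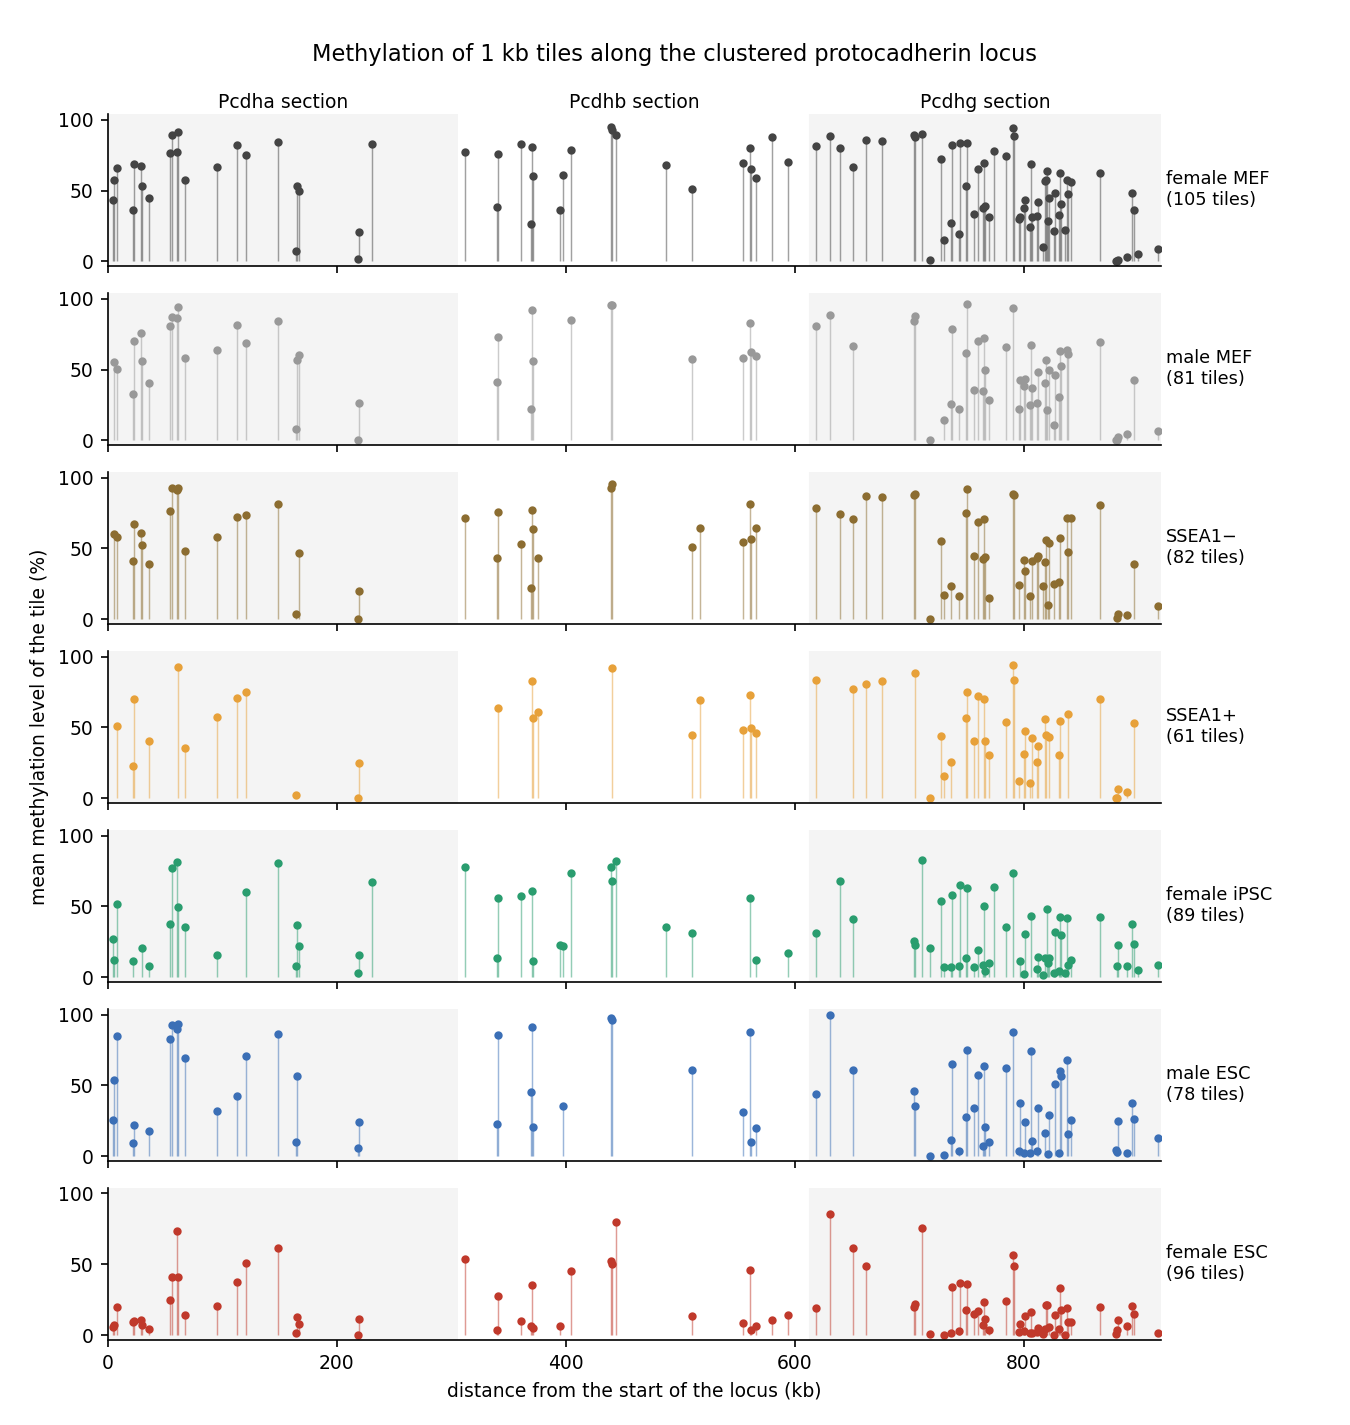
Mean methylation level (%) of each 1 kb tile of the locus against its distance from the start of the locus (kb), 1 panel per group, with the outer sections shaded. Stems in the fibroblast and SSEA1 panels reach intermediate and high levels along the whole locus, those of female ESC are short with a few exceptions, and male ESC mix tall and short stems side by side.

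The mean level over the 35 tiles measured in every sample ordered the groups in 4 steps. Female ESC were lowest at 14.5% ± 1.24 (SD, n = 4), followed by iPSC at 24% ± 0.883 (SD, n = 2) and male ESC at 35.0% ± 1.14 (SD, n = 2). The remaining groups stood close together, SSEA1+ at 44.0% ± 1.6, SSEA1− at 46.0% ± 1.45, female MEF at 46.6% ± 0.994 and male MEF at 46.8% ± 1.4 (n = 2, 2, 4 and 2). By sample, female ESC read 13.9, 13.5, 14.4 and 16.3%, iPSC 24.6 and 23.3%, and male ESC 34.2 and 35.8%. No sample of these 3 groups overlapped another group. SSEA1+ read 45.1 and 42.8%, SSEA1− 44.9 and 47.0%, female MEF 45.1, 46.7, 47.1 and 47.3%, and male MEF 47.8 and 45.8%. Neighbours in this last set overlapped or differed by no more than their spread. Over 32160 other autosomal tiles the order was the same but the steps were smaller, from 23.9% in female ESC through 31.5% in iPSC and 35.7% in male ESC to 40.8% in female MEF. That autosomal mean includes tiles of 30 or more CpGs, which the locus lacks. At matched CpG number, male ESC stood at 33.8% in the locus and 62.5% elsewhere (3 to 9 CpGs), and at 36.3% and 28.4% (10 to 29 CpGs). Female ESC stood at 14.6% and 39.6% in the former class and at 14.4% and 20.5% in the latter, below the autosomal level in both, and so did iPSC, at 25.1% and 52.0%, and 22.8% and 26.2%. The segments of the same length on either side of the locus were less methylated in female MEF, at 26.0% and 28.5%, and stood at 12.4% and 14.7% in female ESC.

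**Figure D2:**
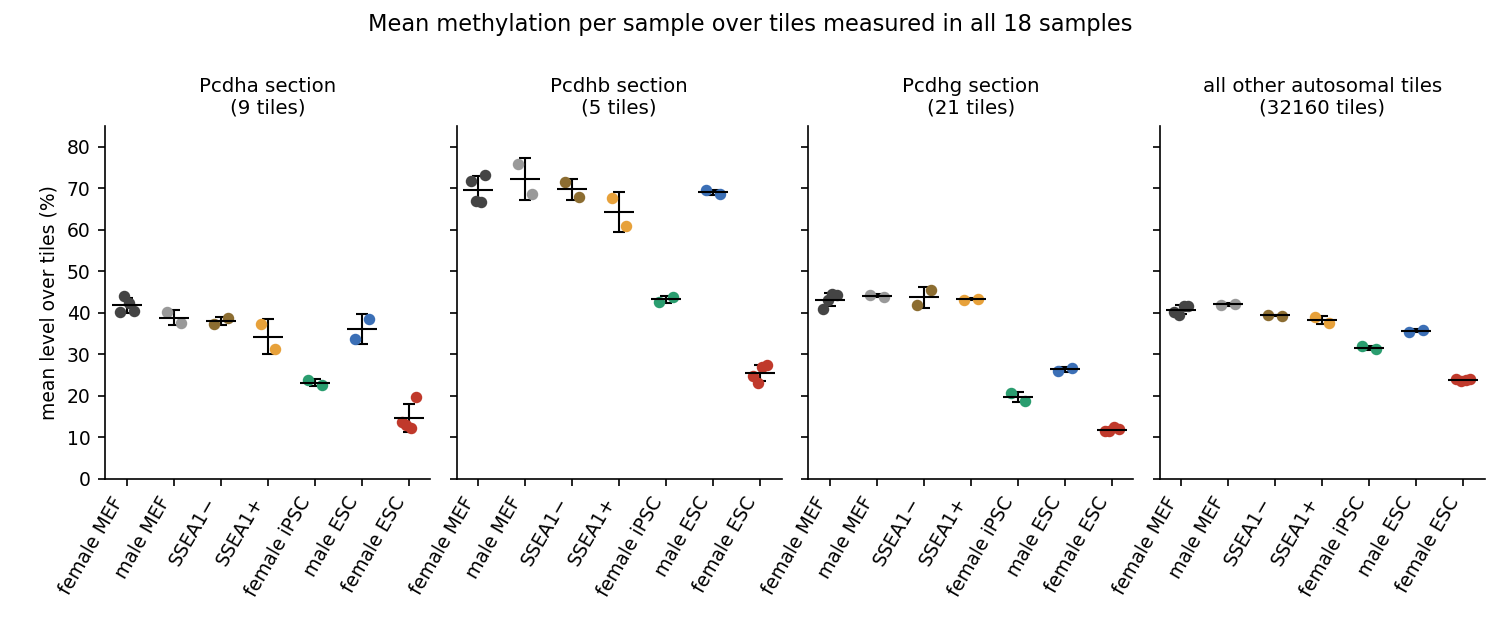
Mean methylation level (%) per sample over the tiles measured in all 18 samples, in each section of the locus and over other autosomal tiles. Points are samples and bars show the group mean and SD. Female ESC are lowest in every panel, and male ESC reach the fibroblast level in the Pcdha and Pcdhb sections but not in the Pcdhg section.

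The sections differed in mean level and in how far the male ESC mean lay from that of male MEF. In the Pcdhb section (5 tiles), levels were highest, with female MEF at 69.6% ± 3.25 (SD, n = 4), male MEF at 72.2% ± 5.11 (SD, n = 2) and male ESC at 69.1% ± 0.661 (SD, n = 2). Female ESC stood there at 25.5% ± 2.02 (SD, n = 4) and iPSC at 43.2% ± 0.859 (SD, n = 2). In the Pcdha section (9 tiles), male ESC stood at 36.1% ± 3.58 and male MEF at 38.8% ± 1.71, and their samples overlapped. In the Pcdhb section male ESC differed from male MEF by -3.1 points, and by 0.519 from the 1 male MEF library of the same type. That mean joins tiles that went both ways. Its 3 tiles of 3 to 9 CpGs stood at 57.5% in male ESC and 68.5% in male MEF. Its 2 tiles of 10 to 29 CpGs stood at 86.5% and 77.7%. In the Pcdhg section (21 tiles), male ESC read 26.0 and 26.8% and male MEF 44.4 and 43.9%. The difference was -17.7 points, or -17.5 against the 1 male MEF library of the same type. Over all tested tiles, the shares called lower in male ESC were closer, at 27.8% (Pcdha), 33.3% (Pcdhb) and 34.9% (Pcdhg). Female ESC stood at 14.7% ± 3.49 in the Pcdha and 11.8% ± 0.496 in the Pcdhg section, and iPSC at 23.2% ± 0.832 and 19.7% ± 1.32. No test of the difference between sections was run. The gap between CpG classes was smaller than elsewhere. Female MEF stood at 51.0% ± 0.989 in the 18 locus tiles of 3 to 9 CpGs and at 41.9% ± 1.23 in the 17 of 10 to 29 CpGs. The corresponding other autosomal tiles stood at 62.2% ± 1.2 and 38.3% ± 0.97.

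Female ESC were less methylated than female MEF at most tiles of the locus. Of 96 tiles tested, 77 (80.2%) were lower in ESC and 0 were higher, where a call needed an adjusted p under 0.05 in a quasi-binomial model and a difference of at least 20 points. Of all tiles tested in the genome, 51.1% were lower and 1.5% higher. An unadjusted p under 0.05 was found at 89 of the 96, and limma also called 76 lower and 0 higher. The median difference was -36.3 points in the locus and -21.4 over all tiles. The mean over common tiles differed by -32.1 points, and by -30.6 within library type A, against -16.9 over other autosomal tiles. All sections took part, with 18 of 22 tiles lower in the Pcdha, 17 of 19 in the Pcdhb and 42 of 55 in the Pcdhg section. The excess over the genome was largest where fibroblasts were intermediate: among tiles at 20 to 80% in MEF, 59 of 64 (92.2%) were lower, against 52.5% of all such tiles. Among tiles over 80% in MEF, 18 of 21 (85.7%) were lower, against 78.1%.

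The largest difference was in the Pcdhb section at 37665001 to 37666000 (3 CpGs). Female ESC 1 to 3 read 11.7, 17 and 3.64%, and female MEF 2 to 4 read 88.2, 88.2 and 86.6%. The means differed by -76.9 points (quasi-binomial model, adjusted p = 2.62e-06), on as few as 17 reads in a sample, and ESC 4 and MEF 1 were dropped there for too few CpGs. In the Pcdhg section the largest was at 37789001 to 37790000 (5 CpGs), where the female ESC samples read 28.2, 20.3, 17.2 and 13.6% and the MEF samples 87.8, 89.1, 90 and 89.3%. The means differed by -69.2 points (quasi-binomial model, adjusted p = 4.23e-09). In the Pcdha section it was at 37107001 to 37108000 (6 CpGs), with ESC at 5.36, 8.97, 13.8 and 13% and MEF 1 and 2 at 66.3 and 71.6%, a difference of -58.6 points (adjusted p = 2.83e-06). MEF 3 and 4 were not measured at that tile. Each of these 3 calls held without any 1 of the samples compared.

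A few tiles stayed methylated in female ESC. Of the 19 tiles not called, 5 had a mean over 60% in ESC, named here after their values were seen, with adjusted p-values from 0.0461 to 0.601. They stood at 73.2% in ESC and 77.2% in MEF (37145001 to 37146000), 79.9% and 88.9% (37528001 to 37529000), 85.4% and 88.4% (37715001 to 37716000), 61.8% and 66.7% (37735001 to 37736000), and 75.6% and 90.1% (37796001 to 37797000). All held 3 to 5 CpGs. Of the other uncalled tiles, 11 were under 20% in MEF, which leaves no room for a difference of -20 points.

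**Figure D3:**
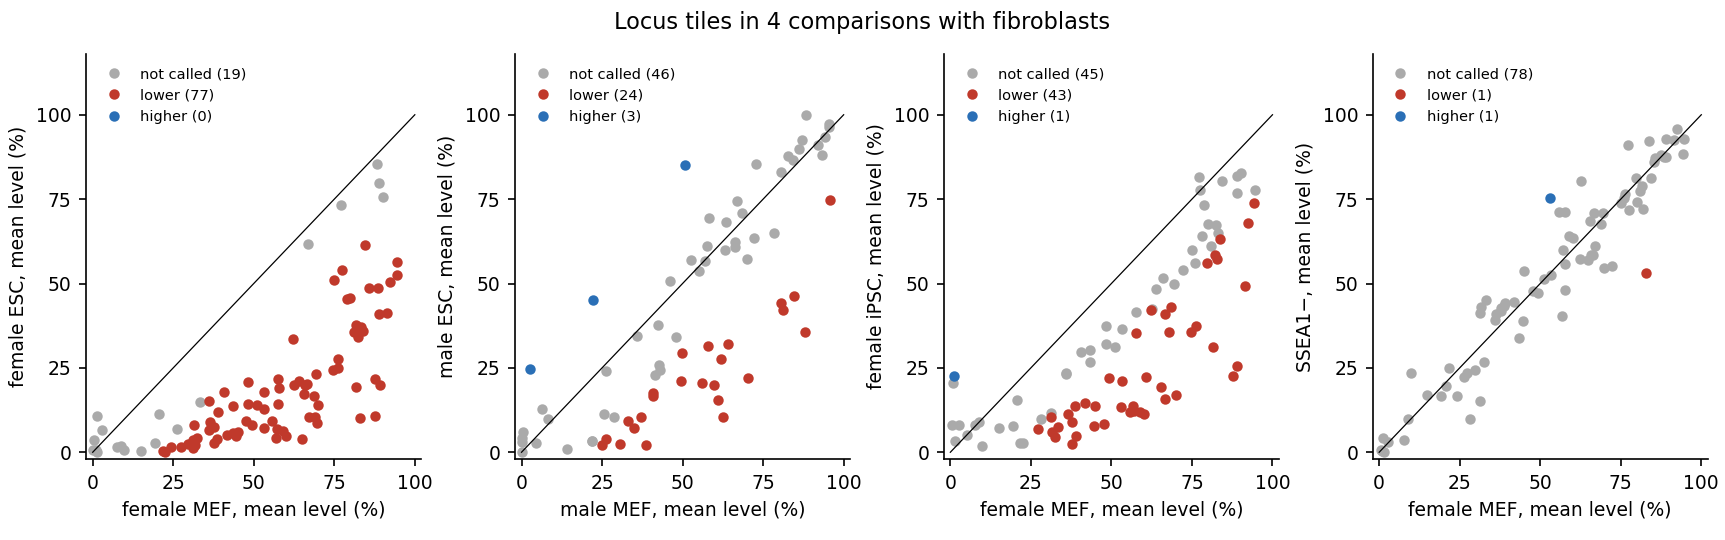
Mean level (%) of each locus tile in the named group (vertical) against fibroblasts of the same sex (horizontal), coloured by call, with the line of equal levels. Called tiles form a band far below the line for female ESC (77 lower) and iPSC (43 lower), a low band beside a set of tiles on the line for male ESC (24 lower, 3 higher), and SSEA1− tiles follow the line (1 lower, 1 higher).

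Male ESC were far below male MEF at some tiles and at or above them at others. Of 73 tiles tested, 24 (32.9%) were lower and 3 (4.11%) higher, against 16.2% and 5.31% of all tiles. Of the differences, 24 were at or beyond -20 points, 24 were negative but smaller, and 25 were 0 or above. The lower tiles were 5 of 18 in the Pcdha, 4 of 12 in the Pcdhb and 15 of 43 in the Pcdhg section, and each section held 1 higher tile. Where male MEF stood at 20 to 80%, 19 of 48 tiles (39.6%) were lower and 2 (4.17%) higher. Genome-wide such tiles went either way at about the same rate, 17% lower and 16.7% higher. The mean level differed by -11.8 points in the locus, -10.8 within library type A, and by -6.37 over other autosomal tiles. The count was 19 to 30 when each sample was left out in turn.

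The tile with the most CpGs in the locus, at 37790001 to 37791000 in the Pcdhg section (26 CpGs), showed the lower set best. Both male ESC samples, at 34.0 and 37.0%, lay far below male MEF, at 88.4 and 87.5%, a difference of -52.5 points (quasi-binomial model, adjusted p = 3.38e-09). Female ESC read 24.4, 29.5, 21.2 and 12.1% there, iPSC 23.8 and 21.3%, and female MEF 88.6, 92.2, 86 and 83.5%. SSEA1+ read 85 and 91.8% and SSEA1− 86.3 and 89.9%. All 8 pluripotent samples were thus under 40% and all 10 others over 80%. Besides its CpG number, this tile was named as the largest called difference without overlap in its section in several comparisons. These were male ESC against male MEF, iPSC against female MEF and iPSC against SSEA1+, so the separation of those groups follows from the choice. In the Pcdhb section, the tile at 37646001 to 37647000 (3 CpGs) read 16.1 and 4.76% in male ESC and 52.3 and 73.0% in male MEF, a difference of -52.2 points (adjusted p = 0.000156). In the Pcdha section, the tile at 37107001 read 24.8 and 19.5% in male ESC and 80.7 and 60% in male MEF (difference -48.2 points, adjusted p = 1.52e-05).

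Tiles of the other set stayed at the fibroblast level or passed it in male ESC. At 37425001 to 37426000 in the Pcdhb section (11 CpGs), male ESC read 83.3 and 87.3% and male MEF 73.3 and 72.3%, a difference of 12.5 points that was not called. The 3 tiles called higher were at 37092001 (Pcdha section), 37454001 (Pcdhb section) and 37967001 (Pcdhg section). At 37092001 to 37093000 (5 CpGs), male ESC read 70.4 and 100% and male MEF 42.6 and 58.5% (difference 34.6 points, adjusted p = 0.0264). At 37454001 to 37455000 (5 CpGs), the levels were 48.4 and 41.7% against 12.8 and 31.8% (difference 22.8 points, adjusted p = 0.017). At 37967001 to 37968000 (14 CpGs), they were 21.5 and 28.1% against 1.8 and 3.25% (difference 22.3 points, adjusted p = 9.88e-07). Each of the 3 lost its call when a sample was left out: the first without male ESC 2 or male MEF 1, the next without male ESC 1 or male MEF 1, and the last without male ESC 2.

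The tiles lower in male ESC were also lower in female ESC, in comparisons that share no sample. Of 73 tiles tested in both sexes, 57 were lower in female and 24 in male ESC. All 24 of the male list (100%) were on the female list, and they made up 42.1% of the latter. Over all tiles tested in both sexes, these shares were 87.0% of the male and 29.7% of the female list. The bases are unlike, since the female list held 57 of 73 tiles here and 33296 of 69246 over all tiles. A tile lower in males also needs a male MEF level of at least 20%. Among locus tiles at 20 to 80% in female MEF, 92.2% were lower in female ESC, and 85.7% among those over 80%. A large overlap thus follows from the length of the female list, and its excess was not tested. Apart from the shared dispersion, the levels of groups other than male ESC and male MEF were not used to choose the tiles lower in males. At the 24 tiles lower in males, iPSC had a median of 11.7% and female ESC of 7.98%. The 46 tiles not called in males stood at 33.7% in iPSC and 15.1% in female ESC, although female MEF had nearly the same median at both sets, 54.9% and 55.2%.

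The low and high tiles of male ESC were often direct neighbours. Among 25 pairs of adjacent tiles, the levels of the pair differed by a median of 42.4 points in male ESC, and by over 40 points in 13 pairs. In the same pairs the median gap was 22.9 points in male MEF, 21.0 in female MEF and 15 in female ESC, with 4, 4 and 1 pairs over 40 points. Among 12459 pairs on other autosomal segments, the median gap was 3.97 points in male ESC, 3.03 in male MEF, 2.87 in female MEF and 2.84 in female ESC, so gaps in the locus were wider in each of these groups. Restricting to pairs over 20% in male MEF left 21 pairs in the locus, with a gap of 45.8 points in male ESC and 22.9 in male MEF, against 7.38 and 5.16 points over 4531 pairs elsewhere. These are descriptions with no test, and adjacent tiles share libraries. At 37455001 to 37456000 (9 CpGs), male ESC read 88.8 and 93.0% and male MEF 91.6 and 92.2%. In the next tile, 37456001 to 37457000 (6 CpGs), male ESC read 28.5 and 12.3% and male MEF 63.7 and 48.0%, a difference of -35.5 points (quasi-binomial model, adjusted p = 0.000223). Likewise the tile at 37645001 to 37646000 (11 CpGs) read 84.3 and 91.1% in male ESC, right before the tile at 37646001 at 16.1 and 4.76%.

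Female ESC were lower than male ESC at part of the locus. Of 76 tiles tested, 32 (42.1%) were lower in female ESC and 0 were higher, against 43.3% and 0.0696% of all tiles. The share in the locus was thus close to that of the genome. Among tiles over 80% in male ESC, 11 of 13 (84.6%) were lower, against 79.6% of all such tiles, and among those at 20 to 80% 21 of 39 (53.8%), against 43.6%. Tiles under 20% in male ESC left no room for a lower call, so the male level itself bears on these shares. In the quasi-binomial model 56 of the 76 had an unadjusted p under 0.05, and limma also called 32 lower and 0 higher. The mean differed by -20.5 points (14.5% against 35.0%), and by -11.8 over other autosomal tiles, with all 6 ESC libraries of type A. It was -43.6 points in the Pcdhb section (25.5% against 69.1%), -21.4 in the Pcdha section and -14.6 in the Pcdhg section. Tiles of 10 to 29 CpGs were called lower more often in the locus than elsewhere, 9 of 22 (40.9%) against 16.8%, and tiles of 3 to 9 CpGs less often, 23 of 54 (42.6%) against 60.6%. The difference between these shares was not tested.

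The tiles with the largest differences between female and male ESC in each section had male ESC means over 70%. Differences of this size need a high male level. At 37092001 in the Pcdha section, female ESC read 13.9, 26.9, 23.8 and 14.9% and male ESC 70.4 and 100%, a difference of -65.3 points (quasi-binomial model, adjusted p = 6.8e-05). At 37891001 to 37892000 in the Pcdhg section (4 CpGs), female ESC read 11.9, 20.5, 19.6 and 14.5% and male ESC 64.0 and 85%, a difference of -57.9 points (adjusted p = 1.08e-05). At 37425001 in the Pcdhb section, female ESC read 20.1, 19.1, 30.6 and 40.7% against the 83.3 and 87.3% of male ESC, a difference of -57.7 points (adjusted p = 4.81e-07). Tiles were named only where samples did not overlap, so the lack of overlap here follows from the choice. The 3 calls held without any 1 sample. In fibroblasts, 0 of 81 tiles were called between the sexes in either direction, against 0.872% lower and 0.552% higher genome-wide in females. Limma called none either, and 11 tiles had an unadjusted p under 0.05 in the quasi-binomial model. The locus mean differed by -0.214 points between the sexes in MEF (46.6% and 46.8%), less than the spread between samples and with a sign that turned under other settings. Whether the sex difference differed between ESC and MEF was not tested.

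**Figure D4:**
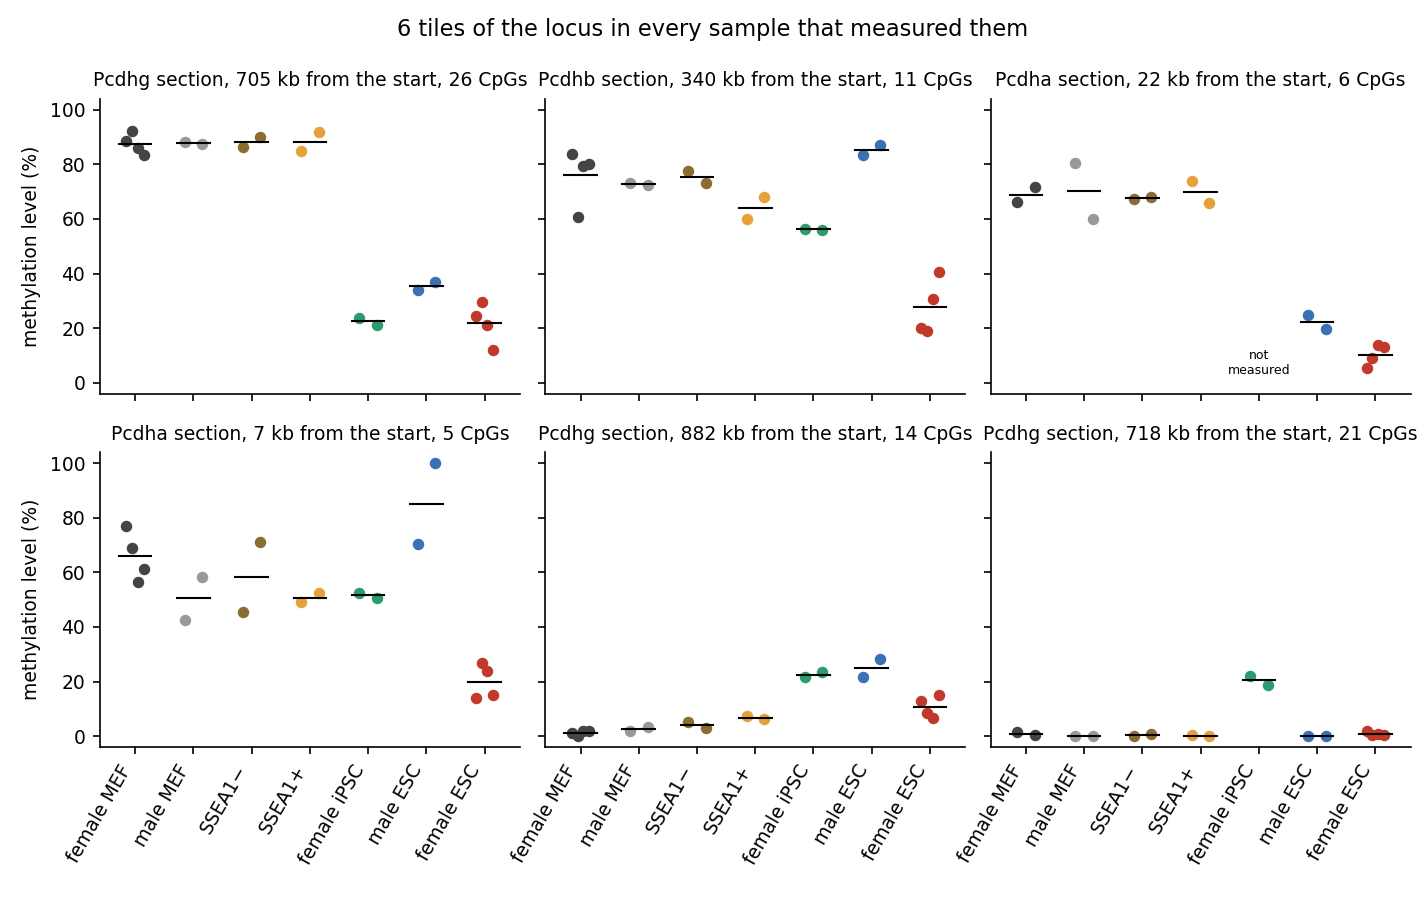
Methylation level (%) in every sample that measured each of 6 tiles, with group means as lines. The tiles were picked for large called differences without overlap of samples, so separation of the groups compared follows from the choice. The tile of 26 CpGs separates all pluripotent samples from the rest, the tiles 340 kb and 7 kb from the start are high in male and low in female ESC, the tile at 22 kb is low in ESC of both sexes, and the last pair are tiles near 0 in fibroblasts that were higher in pluripotent cells or in iPSC.

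In every section of the locus, iPSC had tiles of lower methylation than female MEF. Of 89 tiles tested, 43 (48.3%) were lower and 1 (1.12%) was higher, against 25.9% and 3.75% of all tiles. The lower tiles were 9 of 20 in the Pcdha, 9 of 17 in the Pcdhb and 25 of 52 in the Pcdhg section. Among tiles at 20 to 80% in MEF, 34 of 60 (56.7%) were lower, against 26.5% of all such tiles. The mean over common tiles differed by -22.6 points, and by -23.3 points within library type C, which held both iPSC and 2 MEF libraries. Over other autosomal tiles the difference was -9.24 points. The threshold bears on this count, since 69 tiles passed at a difference of 10 points.

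The largest difference was in the Pcdhg section, at the tile of 26 CpGs (37790001), where iPSC at 23.8 and 21.3% differed from female MEF by -65.0 points (quasi-binomial model, adjusted p = 2.21e-10). In the Pcdhb section, the tile at 37679001 to 37680000 (4 CpGs) read 15.2 and 18.9% in iPSC and 70.9, 77.2 and 61.5% in MEF 1, 3 and 4, a difference of -52.8 points (adjusted p = 2.61e-06). In the Pcdha section, the tile at 37180001 to 37181000 (6 CpGs) read 16.2 and 15.6% in iPSC and 59.3, 72.2, 78.2 and 56.5% in MEF, a difference of -50.7 points (adjusted p = 2.31e-05). At that tile female ESC were spread widely, at 19.4, 3.08, 8.7 and 50%, the last of these lying between iPSC and MEF. These 3 calls held without any 1 sample.

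At part of the locus, iPSC stood above female ESC. Of 81 tiles tested, 17 (21.0%) were higher in iPSC and 0 lower, against 18.1% and 0.301% of all tiles, so the share was near that of the genome. In the quasi-binomial model 45 tiles had an unadjusted p under 0.05, and limma called 12 higher and 0 lower. Higher tiles were 5 of 19 in the Pcdha, 6 of 15 in the Pcdhb and 6 of 47 in the Pcdhg section. The mean level was higher by 9.44 points in the locus and by 7.66 over other autosomal tiles. These groups share no library type, so type and cell type cannot be told apart directly. With type as a term, a fit that links them only through MEF, 3 tiles were called. Without iPSC 1 the count was 11. The iPSC mean lay between those of female and male ESC at 46 of 66 tiles (69.7%), against 54.6% of other autosomal tiles, and at or above both at 13 (19.7%, against 35.0%).

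In each section, the tile where iPSC exceeded female ESC most was highly methylated in male ESC and also in female MEF. At 37445001 to 37446000 in the Pcdhb section (12 CpGs), iPSC read 56.0 and 58.5% and female ESC 1, 2 and 4 read 11.1, 5.26 and 14.3%, a difference of 47.1 points (quasi-binomial model, adjusted p = 0.00107). The 1 male ESC sample measured there read 96.8%. At 37140001 to 37141000 in the Pcdha section (4 CpGs), iPSC read 76.5 and 77.4%, female ESC 1 to 3 read 43.1, 44.1 and 35.4%, and male ESC 91.7 and 93.3%. The difference between iPSC and female ESC was 36.1 points (adjusted p = 0.000813). In the Pcdhg section, at 37829001 to 37830000 (5 CpGs), iPSC at 65.2 and 64.6% exceeded female ESC, at 32.5, 47.2, 43.1 and 25.8%, by 27.8 points (adjusted p = 0.00076), and male ESC 1 read 86.5%. All 3 kept their calls without any 1 sample.

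Few tiles separated the reprogramming populations from fibroblasts, at this locus and genome-wide alike. Against female MEF, SSEA1− had 1 tile lower and 1 higher of 80 tested (1.25% each), against 1.53% and 0.289% of all tiles. SSEA1+ had 0 of 59 called in either direction, against 1.92% lower and 0.423% higher of all tiles. Nor was any of 59 tiles called between SSEA1+ and SSEA1−, against 0.568% lower and 0.371% higher. In the quasi-binomial model, 16 of 80, 9 of 59 and 2 of 59 tiles had an unadjusted p under 0.05 in these 3 comparisons, and limma called 0 in each. The smallest adjusted p was 0.0581 for SSEA1+ against MEF and 0.195 for SSEA1+ against SSEA1−. The locus mean differed from female MEF by -0.619 points in SSEA1− (-0.713 within library type B) and by -2.62 points in SSEA1+ (-2.72 within type B). Over other autosomal tiles these differences were -1.42 and -2.49 points. The sign of the SSEA1− difference turned with a minimum of 10 reads (35.0% against 33.6%).

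In the Pcdha section the SSEA1+ samples, at 37.2 and 31.3%, lay below all 4 female MEF samples, which ranged from 40.3 to 44.1%, and SSEA1− samples lay between, at 37.3 and 38.7%. No tile of that section was called. In the Pcdhg section, SSEA1+ at 43.3% ± 0.254 (SD, n = 2) and female MEF at 43.2% ± 1.63 (SD, n = 4) overlapped. The 2 tiles called in SSEA1− rested on single samples. At 37445001, SSEA1− read 49.5 and 56.5% and MEF 75, 76.7, 88.5 and 91.2%, a difference of -29.9 points (quasi-binomial model, adjusted p = 0.0114) that was lost without SSEA1− 1 or MEF 3. At 37834001 to 37835000 (8 CpGs), SSEA1− read 84.6 and 65.9% and MEF 61.6, 55.0, 48.2 and 47.5%, a difference of 22.2 points (adjusted p = 0.0434). This call was lost without either SSEA1− sample, MEF 3 or MEF 4, and 1 of the 2 tiles was called with MEF 3 and 4 summed.

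The step from SSEA1+ cells to iPSC was large at the locus. Of 47 tiles tested, 23 (48.9%) were lower in iPSC and 1 (2.13%) was higher, against 21.0% and 4.17% of all tiles. The lower tiles were 3 of 10 in the Pcdha, 4 of 7 in the Pcdhb and 16 of 30 in the Pcdhg section. The mean fell from 44.0% to 24%, a difference of -20.0 points, against -6.74 over other autosomal tiles. At 37146001 to 37147000 in the Pcdha section (6 CpGs), SSEA1+ read 91.8 and 93.5% and iPSC 50 and 48.6%, a difference of -43.3 points (quasi-binomial model, adjusted p = 0.000201). At 37456001 in the Pcdhb section, SSEA1+ read 58.6 and 54.5% and iPSC 12.9 and 9.84% (difference -45.2 points, adjusted p = 0.000334). At the tile of 26 CpGs in the Pcdhg section, the difference was -65.8 points (adjusted p = 2.24e-08). These groups share no library type either, and with type as a term 14 tiles were called. Without SSEA1+ 1 the count was 16.

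**Figure D5:**
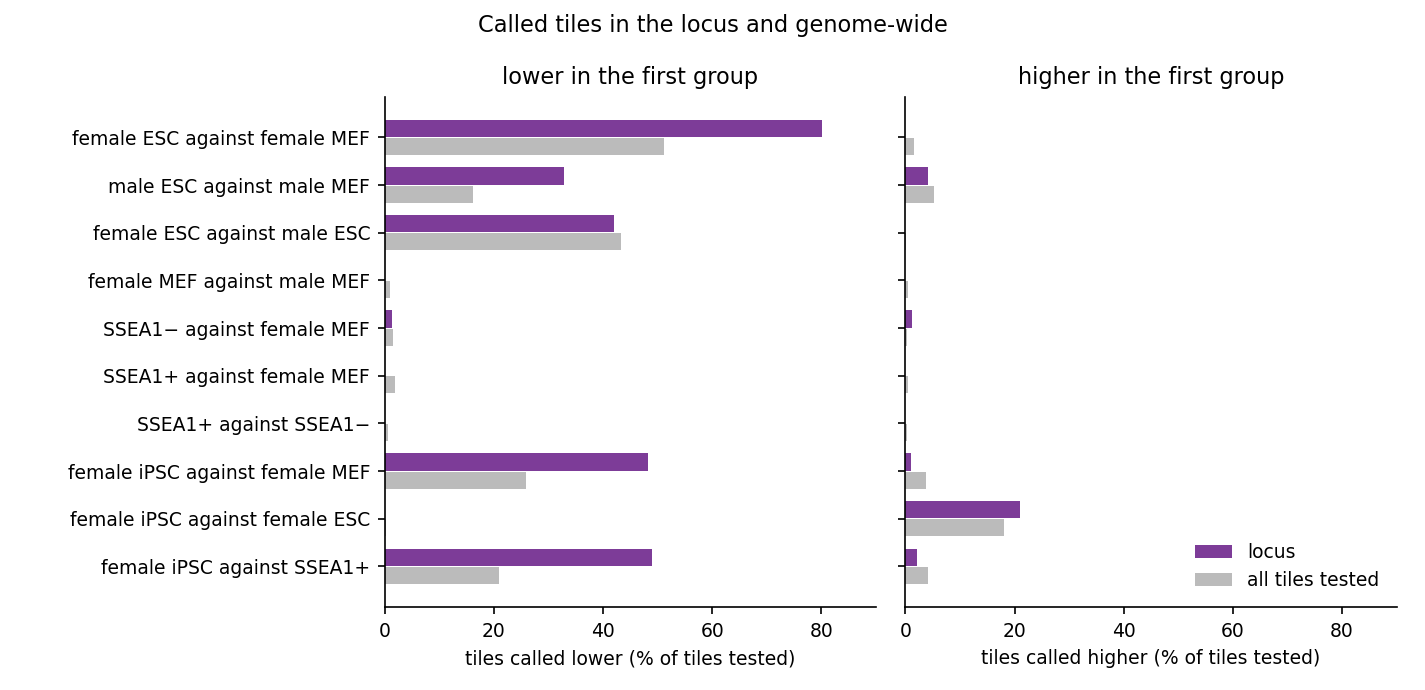
Percentage of tested tiles called lower (left) or higher (right) in the first-named group, for the locus and for all tiles tested, in 10 comparisons. In the left panel the locus bar exceeds the genome bar for ESC and iPSC against fibroblasts and for iPSC against SSEA1+, and is close to it between female and male ESC. In the right panel it is below the genome bar for those comparisons with fibroblasts and SSEA1+, and both bars are near 0 in both panels among fibroblasts and SSEA1 populations.

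At 2 tiles near 0 in fibroblasts, iPSC carried methylation, at the first of them together with ESC. At 37967001 in the Pcdhg section (14 CpGs), female MEF read 1.14, 0.0, 1.87 and 1.9% and iPSC 21.6 and 23.5%, a difference of 21.3 points (quasi-binomial model, adjusted p = 1.18e-10) that held without any 1 sample. Female ESC read 12.8, 8.46, 6.73 and 15.1% there, SSEA1+ 7.45 and 6.12%, and SSEA1− 5.16 and 3.01%. All samples of the SSEA1 populations lay above all female MEF samples, SSEA1− lay below all female ESC samples, and SSEA1+ overlapped female ESC. Neither difference from female MEF was called (quasi-binomial model, SSEA1− 2.86 points, adjusted p = 0.22, SSEA1+ 5.56 points, adjusted p = 0.0931). Male MEF 2, at 3.25%, lay above SSEA1− 2. Of all tiles, 10.1% (SSEA1−) and 8.24% (SSEA1+) had every sample above every female MEF sample. The tile directly before it, 37966001 to 37967000 (24 CpGs), stayed under 10% in every sample, with the highest level, 9.62%, in iPSC 2, followed by female ESC 4 at 7.58% and iPSC 1 at 6.59%. At 37803001 to 37804000 (21 CpGs), iPSC read 22.2 and 18.8%, on as few as 36 reads, while SSEA1+ read 0.237 and 0.0%, a difference of 20.4 points (adjusted p = 3.77e-05) that was lost without iPSC 1. Each of the other 12 samples measured there was under 2%. No fibroblast library of the iPSC type covered that tile, so library type and cell type cannot be told apart at it.

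Tiles low in every sample that measured them made up a smaller share of the locus than of other autosomal tiles. In all, 6 of 107 (5.61%) stayed under 20% in every sample that measured them, against 16.6% of other autosomal tiles. They lay at 37249001 (16 CpGs) and 37303001 (24 CpGs) in the Pcdha section and at 37965001, 37966001, 37975001 and 37984001 (4, 24, 17 and 3 CpGs) near the end of the Pcdhg section. Of these, 37965001 was measured in 13 samples and 37984001 in 4, and the others in all 18. The highest level of any sample at them was 14.6%. The other autosomal tiles include those of 30 or more CpGs, which the locus lacks and which stood at 9.01% in female MEF. The shares were not compared at matched CpG number. At 37303001 to 37304000, all female ESC, SSEA1+ and SSEA1− samples read 0.0%, and the next tile, at 37304001 (21 CpGs), read 15.7 to 25.4% in female MEF and 7.5 to 15% in female ESC.

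Tiles differed in how closely they followed the group means of the locus. Over the 7 group means, the level of a tile correlated with the mean of the locus with a median Pearson r of 0.864 over the 35 common tiles, and r exceeded 0.9 in 13 of them. These values are descriptive, since each tile is part of that mean and all share the same libraries. The tiles most like the mean were at 37897001 and 37907001 (20 and 19 CpGs, r = 0.982 for both) and at 37703001 (16 CpGs, r = 0.971), all in the Pcdhg section. At 37907001 to 37908000, female ESC read 7.54, 5.43, 3.63 and 7.1%, iPSC 14.4 and 12.9%, male ESC 33.7 and 24.9%, and female MEF 37.2, 47.5, 49.1 and 46.4%. In 4 tiles r was below 0, the lowest at 37966001 (-0.771), 37975001 (-0.731) and 37967001 (-0.595), which lie close together near the end of the locus.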

How the data were processed

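The assay was reduced representation bisulfite sequencing of 18 mouse samples, grouped by their titles, with sex as the labels' gender field gives it (female for all SSEA1 samples). Per the file columns, the deposited tables hold counts of methylated and of all reads per CpG and strand, and a score that the authors set as 1000 times their ratio, rounded down, which was not used. The build was mm9, per the submitters' processing notes. Not given in the sources used here: aligner, caller and filters. Fragments that could not be placed, strain variants and incomplete conversion would alter these counts, and their part was not tested.

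Strands were added, and methylated and total reads were summed over the CpGs of a tile that held at least 5 reads. The CpG number of a tile counts CpGs with 5 or more reads in at least 2 samples. Every tile of the genome was fitted by a quasi-binomial model of 7 group means, with the dispersion moderated by empirical Bayes (checked against limma) and no lower than 1. Benjamini-Hochberg adjustment of the F tests ran over all tiles tested in each of 10 comparisons and the model was tested on simulated counts. Samples in which a tile did not qualify were dropped from its fit. Differences between means of samples over tiles were given no p, since 2 samples in most groups limit what any test could reach.

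The tiles named in the text are, in each section, the 3 with the most CpGs among those measured in all samples, the largest called difference in each direction without overlap of samples in each comparison, and the 3 most and 3 least like the locus mean. The locus, its sections and the comparisons were chosen with earlier results of these data known. Alternatives were a minimum of 10 or 3 reads, shifted tile bounds, tiles measured in all samples, limma on log2 ratios with a prior count of 1, library type as a term, a replicate block, other ways to average, and leaving out each sample. A difference of 10 points and the sum of female MEF 3 and 4 were added after seeing the data. Tools were R 4.3.3 with limma 3.58.1, and Python 3.11.15 with scipy 1.17.1, pandas 2.3.3 and numpy 2.4.6.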

Additional observations from a re-analysis of the deposited data

Results flagged for a closer look

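At 4 of the named tiles, ESC moved in opposite directions in the sexes, with no overlap of measured samples in either sex. All measured female ESC were below all measured female MEF, and both male ESC above both male MEF. The difference between ESC and MEF was 34.6 points in males and -46.1 in females at 37092001, 11.3 and -43.5 at 37152001 (16 CpGs), 12.5 and -48.4 at 37425001, and 22.8 and -19.4 at 37454001. These differences between the sexes were not tested, and at 37454001 only 3 female ESC and 2 female MEF samples were measured. Named tiles were partly chosen for large differences in ESC, and the share of such tiles in the locus or genome was not counted. The male difference was not called at 37152001 and 37425001, nor the female one at 37454001. The male calls at 37092001 and 37454001 were each lost when some samples were left out. At 37152001, male ESC read 72.7 and 66.4%, male MEF 60 and 56.5%, female ESC 13, 16.4, 11.0 and 16.2%, and female MEF 56.4, 63.5, 54.9 and 55.8%. Only 2 samples a sex support each male value.

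In female MEF, sample 2 stood apart from the other 3 at 2 tiles of the Pcdhg section. It read 71.3% at 37703001, where the group's median was 84.6%, and 0.704% at 37975001, where the median was 3.37%. Among the 52 groups of 4 samples examined, chance alone marks about 1 in 20.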

How the results depend on the processing

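Calls of ESC or iPSC against other groups kept their prevailing direction under each alternative. Small differences in mean level turned: SSEA1− lay below female MEF in the report and above it at 10 reads, and female MEF lay below male MEF in the report and above it over each sample's own tiles, at 3 reads, in shifted tiles and over CpGs (45.9 and 45.6%). Counts of calls fell at a higher minimum of reads, where fewer tiles were tested. With a minimum of 10 reads, 51 of 64 tiles were called for female ESC against MEF (77 of 96 in the report). For male ESC against MEF it was 17 of 45 (27 of 73 in the report). Between the sexes of ESC it was 19 of 50 (32 of 76), and for iPSC against SSEA1+ 8 of 18 (24 of 47). Over tiles measured in all samples, these counts were 28, 15, 13 and 15, and 21, 6 and 1 for iPSC against MEF, iPSC against female ESC and SSEA1− against MEF; fewer tiles were tested there. For SSEA1− against MEF, limma, the replicate block and library type each gave 0, and summing MEF 3 and 4 gave 1. With the same tiles tested, library type gave 3 of 81 for iPSC against female ESC (17 in the report). It gave 14 of 47 for iPSC against SSEA1+ (24 in the report). At 10 points, 69 were called for iPSC against MEF and 1 between the sexes of MEF. The cause of each shift was not tested, except where fewer tiles enter.

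Leaving out each sample gave 72 to 78 tiles for female ESC against MEF, 19 to 30 for male ESC against MEF, 28 to 36 between the sexes of ESC, 0 to 1 between those of MEF, 0 to 3 for SSEA1− against MEF, 0 to 1 for SSEA1+ against MEF and against SSEA1−, 43 to 51 for iPSC against MEF, 11 to 18 against female ESC and 16 to 26 against SSEA1+. Of 25 named calls, 19 held without each sample and 22 with limma. The replicate block gave 70 tiles for female ESC and 40 for iPSC against MEF. Same-numbered samples of different groups had a median correlation of deviations of -0.00104 over 44 pairs, with a range from -0.27 to 0.0471. Differently numbered samples had a median of 0.000652 over 92 pairs, with a range from -0.211 to 0.27. A median over pairs from all groups cannot exclude pairing between some groups, and pairing between single groups was not tested.

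The mean level depended on the tiles, in the order female ESC, male ESC, iPSC, SSEA1+, SSEA1−, female MEF, male MEF. It was 19.1, 41.1, 32.8, 50.6, 54.7, 55.3 and 54.4% over each sample's own tiles, 8.48, 27.3, 16.6, 31.6, 35.0, 33.6 and 35.3% at 10 reads, 19.2, 40.6, 29.2, 50, 52.4, 52.5 and 52.4% at 3 reads, and 16.3, 41.9, 30.9, 46.4, 48.7, 51.9 and 50.1% in shifted tiles. SSEA1− stood at 43.9% as a mean over CpGs. Leaving out each sample gave 13.9 to 14.9, 34.2 to 35.8, 23.3 to 24.6, 42.8 to 45.1, 44.9 to 47.0, 46.3 to 47.0 and 45.8 to 47.8%. Depth limits the tiles of few CpGs, where some samples held as few as 17 reads.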
